A study of Mus musculus with 18 samples.

Results

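Endothelial cells line blood and lymph vessels, and 34 genes that mark them were followed here in lung metastases of a mouse breast cancer. The 34 genes were chosen by name: 27 are used by endothelium in general, Car4 and Ednrb mark capillary cells, Vwf and Selp larger vessels, and Lyve1, Prox1 and Flt4 lymph vessels. All 34 were found among the 49585 gene identifiers of the series, and all 34 passed the filter on low counts that left 16917 genes for testing.

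In endothelium, cells are joined by cadherin and claudin contacts, and growth is steered by VEGF, angiopoietin, BMP and adrenomedullin receptors. Transcription factors of the ETS and SOX families keep the cell identity. The lung holds a dense capillary bed around the airspaces, and a metastasis there can use those vessels or draw new ones in, while lymph vessels follow airways and larger vessels.

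The lesions grew from AT3 cells, a mouse mammary carcinoma line that carried GFP and mCherry, placed in the mammary fat pad of mice and left to spread to the lung. There were 7 lesions from 2 mice that received 60000 activated mouse NK cells by vein on day 11, and 11 lesions from 3 control mice that received PBS. Both groups carry the strain label Rag2-/-IL2rg-/-, a background without host T, B or NK cells, although the text on tumour growth writes Rag1-/-IL2rg-/-. No ages are given. The mice with NK cells are NK1, with 3 lesions, and NK2, with 4. The control mice, labelled Ctrl, are KO1 with 5 lesions, KO2 with 4 and KO3 with 2. Lesions carry the name of the mouse and a number, as in NK1-3. Lesions were cut out of frozen lung sections by laser, so a sample holds tumour cells with whatever vessels, immune cells and lung tissue lay within the outline. The lesions of a mouse share their host, so the mouse was the replicate, and p-values rest on 2 mice against 3.

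Total counts were 2964241 to 11798853 in NK lesions and 5690448 to 9816212 in control lesions. The mitochondrial ribosomal transcript mt-Rnr2 took 47.6%, 65.3% and 52.0% of counts in the lesions of NK1 and 13.7% to 22.8% in those of NK2, against 12.1% to 68.7% in control lesions. All 8 genes of a tumour epithelium list and all 12 of an alveolar list were detected in both groups. A list of 8 NK cell genes summed to 1.44 to 69.6 CPM (counts per 1000000 of the scaled library) in NK lesions and to 0.575 to 9.91 CPM in control lesions. Lesion NK1-3, at the low end, had 1422280 counts outside mt-Rnr2, the fewest of the 18. The lesions of NK1 stood apart in most endothelial genes, so results are given with and without that mouse.

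To show the DNA in front of genes whose levels are described here, the promoters of the 4 general members with the highest mean CPM among the 18 members in the RefSeq promoter table follow. Each runs from 250 bases before to 50 after the RefSeq start, 5′ to 3′ in the gene's direction, on GRCm38.p6. Capitals mark AGGAA or its reverse complement TTCCT, the core that ETS factors such as Erg are known to bind. Calcrl encodes an adrenomedullin receptor (chr2:84425217-84425516, minus strand), Kdr the main VEGF receptor (chr5:75978406-75978705, minus strand), Eng the TGF-beta co-receptor endoglin (chr2:32646345-32646644, plus strand) and Flt1 a VEGF decoy receptor (chr5:147725962-147726261, minus strand).
Calcrl: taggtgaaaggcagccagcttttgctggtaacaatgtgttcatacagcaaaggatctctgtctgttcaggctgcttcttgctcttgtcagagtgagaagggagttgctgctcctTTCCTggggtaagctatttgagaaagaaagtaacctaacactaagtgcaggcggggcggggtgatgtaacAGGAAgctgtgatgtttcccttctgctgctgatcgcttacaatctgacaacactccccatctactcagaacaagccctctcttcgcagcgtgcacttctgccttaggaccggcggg
Kdr: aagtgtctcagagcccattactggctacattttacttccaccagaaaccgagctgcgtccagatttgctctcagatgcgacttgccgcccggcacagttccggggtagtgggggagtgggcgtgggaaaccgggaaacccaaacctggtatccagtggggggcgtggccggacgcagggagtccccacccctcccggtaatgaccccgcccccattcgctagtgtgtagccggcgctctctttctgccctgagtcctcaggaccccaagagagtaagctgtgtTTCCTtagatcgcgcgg
Eng: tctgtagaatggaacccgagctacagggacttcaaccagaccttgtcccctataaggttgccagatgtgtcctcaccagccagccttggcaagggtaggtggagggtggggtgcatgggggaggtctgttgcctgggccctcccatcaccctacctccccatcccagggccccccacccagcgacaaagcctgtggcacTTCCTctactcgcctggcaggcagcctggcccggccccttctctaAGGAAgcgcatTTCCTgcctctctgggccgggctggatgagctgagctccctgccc
Flt1: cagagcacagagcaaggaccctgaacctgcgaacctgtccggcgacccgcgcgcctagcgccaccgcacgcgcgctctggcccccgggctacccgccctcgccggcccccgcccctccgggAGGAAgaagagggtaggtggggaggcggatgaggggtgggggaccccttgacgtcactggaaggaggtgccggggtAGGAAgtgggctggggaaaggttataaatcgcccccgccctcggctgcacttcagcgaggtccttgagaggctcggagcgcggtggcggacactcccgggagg
The core stood 2 times in the Calcrl window, 1 time in that of Kdr, 3 times in that of Eng and 2 times in that of Flt1. Over all 23 windows of the 18 members, 17 (73.9%) held it on either strand, against 66.7% of 32851 promoters of the same length. The letters ACAAT, a core of SOX sites, searched on both strands, were in 6 member windows (26.1%), against 31.0% of promoters. A GATA site, AGATAA on either strand, was in 2 (8.70%), against 11.2% of promoters. Such short matches describe letters and are not shown to be sites.

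The endothelial genes as a group were low in NK1 and near the control level in NK2. The score of the 27 general members, the mean of log2(CPM + 1) over them, was 1.75, 2.14 and 1.71 in the lesions of NK1 and 3.81 to 3.96 in those of NK2, against 3.17 to 4.41 in control lesions. The 3 lesions of NK1 were the lowest of all 18, and the 4 of NK2 lay inside the control range. From counts summed per mouse, NK1 scored 2.04 and NK2 3.99, against 3.80 for KO1, 4.23 for KO2 and 3.98 for KO3. In samples of bulk tissue, fewer endothelial cells and less of these RNAs per cell cannot be told apart.

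**Figure D1:**
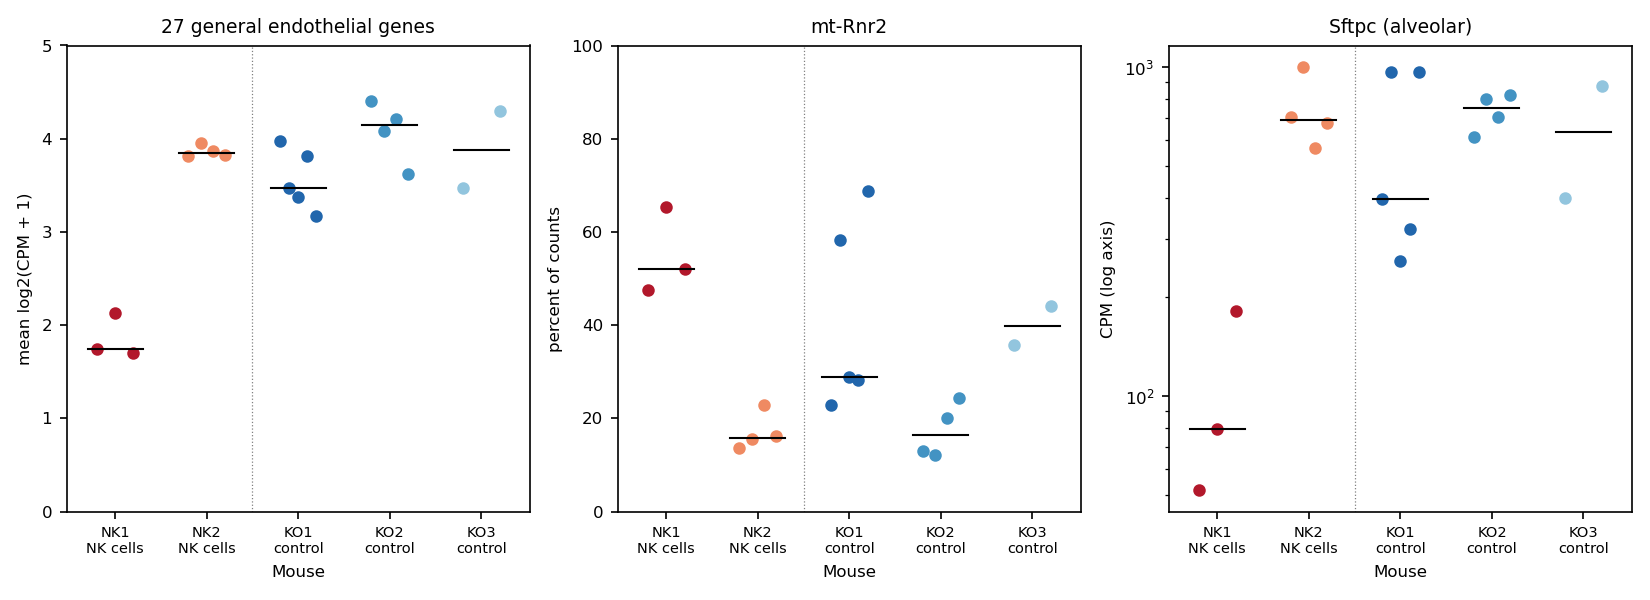
Score of the 27 general endothelial genes (left, mean of log2(CPM + 1)), percent of counts in mt-Rnr2 (middle) and CPM of Sftpc (right, log axis) for each lesion by mouse, NK mice left of control mice, with the median of each mouse as a bar. The 3 lesions of NK1 score between 1.71 and 2.14 and the 4 lesions of NK2 between 3.81 and 3.96, against 3.17 to 4.41 in the control lesions.

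Over the 34 genes, 30 had a log2 fold change, NK over control, below 0, where 51.7% of all tested genes did. The median was -0.79, beside -0.03 over all tested genes. The exceptions were Aplnr, Ednrb, Lyve1 and Prox1. None of the 34 passed at an adjusted p of 0.05 (edgeR quasi-likelihood F test, Benjamini-Hochberg over all genes, adjusted p = 0.9998 for each), where 0% of all genes did. At an unadjusted p under 0.05 in edgeR, 2 members were lower with NK cells, Egfl7 and Ccm2l, beside 0.969% of all genes, and 0 were higher, beside 1.55%. DESeq2 called 0 members too, beside 0.149% of its 26158 tested genes, and had 4 lower ones at an unadjusted p under 0.05 (Egfl7, Ccm2l, Robo4 and Erg), beside 1.73%. Without NK1, 17 of the 34 had a log2 fold change below 0, beside 54.4% of all genes, and the median was -0.04, beside -0.08 over all genes.

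Counted gene by gene, NK1 was the lowest of the 5 mice for 31 of the 34 members, beside 27.0% of all tested genes. The other 3 were Kdr, Ednrb and Prox1. Each lesion of NK1 lay below each lesion of NK2 for 25 members, beside 10.9% of all genes, and below each control lesion for 13, beside 1.31%. Those 13 were Pecam1, Cdh5, Cldn5, Esam, Tie1, Erg, Sox17, Mmrn2, Clec14a, Cd93, Plvap, Car4 and Vwf. Both NK mice lay below every control mouse for 4 members (Erg, Robo4, Egfl7 and Ccm2l), beside 6.86% of all genes, and above every control mouse for 0, beside 7.94%. The share of 4 in 34 is read against that background and against a design of 2 mice against 3, not as a result of its own.

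**Figure D2:**
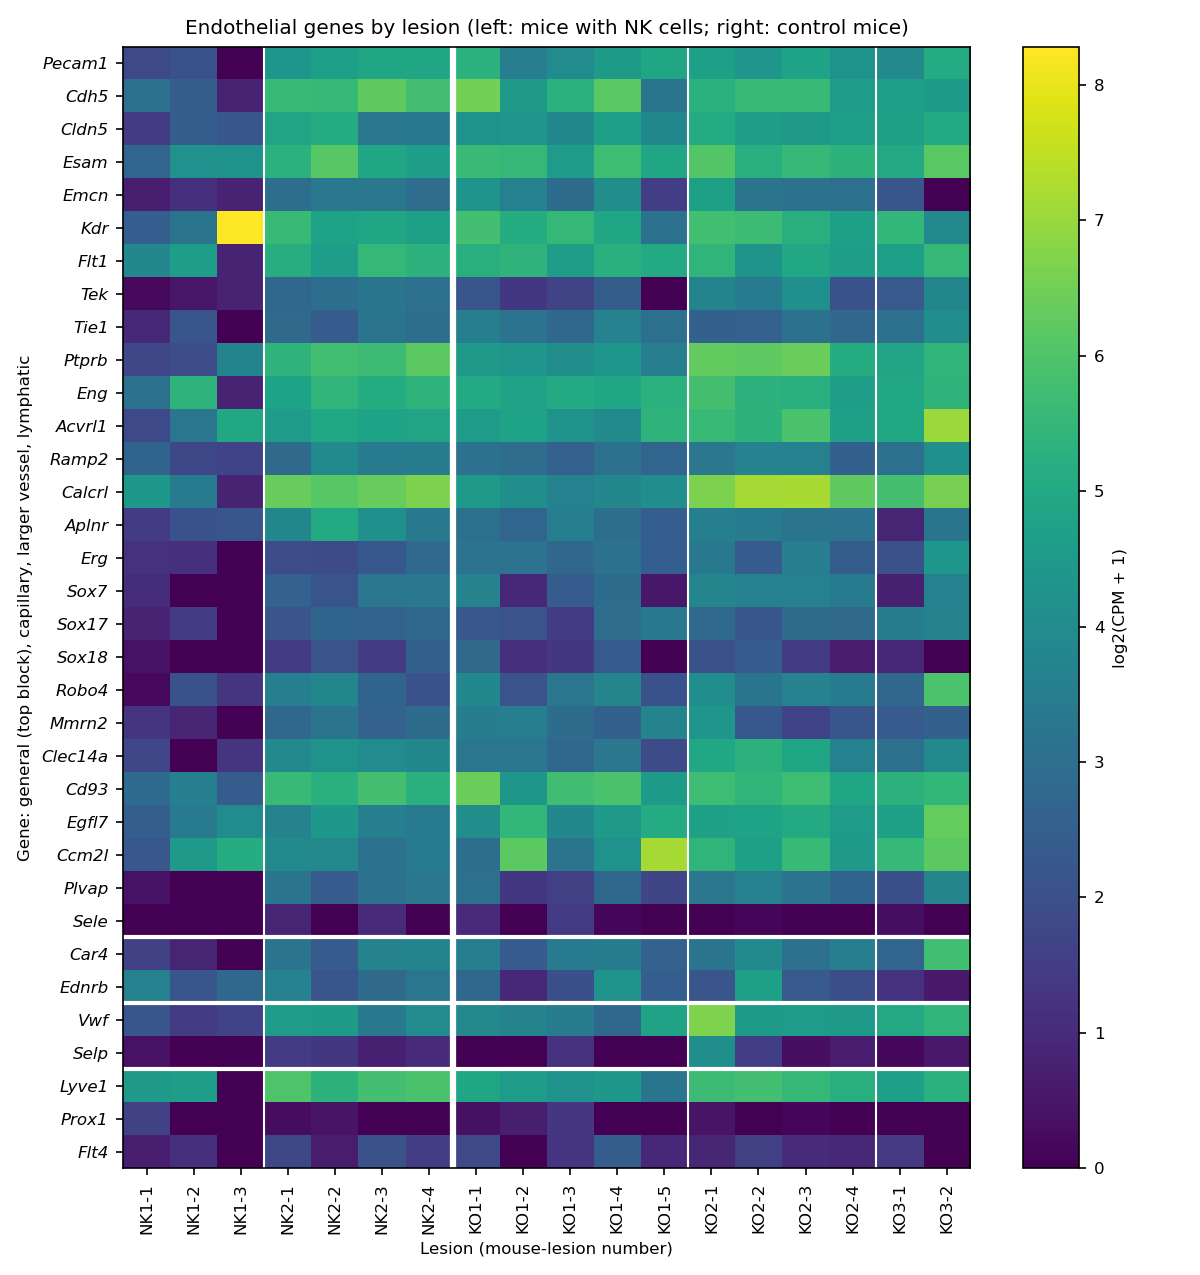
Level of each of the 34 endothelial genes (rows) in each of the 18 lesions (columns, NK lesions left of control lesions), as log2(CPM + 1), lighter for higher. The 3 columns of NK1 are low for most genes, with exceptions that include Kdr, Acvrl1 and Ccm2l in NK1-3, Eng and Flt1 in NK1-2, and Ednrb and Prox1 in NK1-1.

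Other values also differed in NK1, though not all of them in each of its lesions. Besides the mt-Rnr2 share, the lung epithelial gene Sftpc, made by alveolar type II cells, had 51.7, 79.6 and 181 CPM in NK1 lesions and 569 to 1004 CPM in NK2 lesions, against 258 to 970 CPM in control lesions. The alveolar list of 12 genes summed to 454, 511 and 3416 CPM in NK1, to 1952 to 2527 CPM in NK2 and to 861 to 3873 CPM in controls. Fibroblast genes (8) summed to 490 to 7892 CPM in NK1 and to 884 to 1338 CPM in NK2, against 174 to 824 CPM in controls. Airway genes (8) summed to 4600, 26.4 and 25311 CPM in NK1 lesions and to 24.7 to 2701 CPM in NK2, against 12.9 to 16132 CPM in controls. Adipocyte genes (5) summed to 1255, 0 and 0 CPM in NK1 lesions and to 0.139 to 2.50 CPM in NK2, against 0 to 4.72 CPM in controls. Cardiac muscle genes (8) summed to 271, 4.87 and 82.8 CPM in NK1 lesions and to 2.04 to 4.71 CPM in NK2, against 0.921 to 31.1 CPM in controls. The part of any of these in the endothelial levels was not tested. Depth and mt-Rnr2 share were matched in part by lesion KO1-5, with 1866790 counts outside mt-Rnr2 and 68.7% in it, beside 1681278 and 65.3% in NK1-2. The general score was 3.17 in KO1-5, the lowest of the control lesions, and 2.14 in NK1-2. When every lesion with over 40% mt-Rnr2 was left out, which removes NK1 with KO1-2, KO1-5 and KO3-2, the median of the 34 members was 0.03. Of the 34 members, 33, 27 and 20 had a count in the lesions of NK1 and 32 to 34 in those of NK2, against 29 to 34 in control lesions. A count of 0 allows up to 0.473, 1.22 and 2.16 CPM in NK1-1, NK1-2 and NK1-3 (3 counts, counting error only), so low genes could not be resolved there. In GENCODE M21, 7 members share exon bases with another gene, 6 of them (Acvrl1, Egfl7, Eng, Prox1, Selp and Sox17) with one on the opposite strand, and as strand handling is not known their levels are uncertain to that extent.

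Among the junction genes, all 5 had log2 fold changes below 0, with a median of -0.81. Cdh5, VE-cadherin of the endothelial junction (chromosome 8, 104101625 to 104144511), had 5.42 CPM in NK1 and 58.5 in NK2, against 59.8, 41.5 and 24.4 in KO1, KO2 and KO3. By lesion it had 7.10, 4.47 and 0.720 CPM in NK1 and 46.0 to 75.0 CPM in NK2, against 8.23 to 92.8 CPM in controls with a median of 38.1. NK1 was apart from all other lesions, while NK2 overlapped the controls, and the log2 fold change was -0.38 ± 0.86 (SE). Without NK1 it was 0.48.

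Pecam1, the adhesion molecule CD31, had 2.52, 3.25 and 0 CPM in NK1 lesions and 19.2 to 28.2 CPM in NK2 lesions, against 10.7 to 37.7 CPM in control lesions. Cldn5, the tight junction claudin of endothelium (chromosome 16, 18776847 to 18778262), averaged 11.4 ± 12.5 CPM in NK mice (SD, n = 2) and 24.8 ± 5.44 CPM in control mice (n = 3), with 2.57 in NK1 and 20.2 in NK2. Its log2 fold change was -1.11 ± 0.77 (unadjusted p = 0.189, edgeR). Within NK2 it split, with 27.6 and 32.9 CPM in NK2-1 and NK2-2 and 8.87 and 9.25 CPM in NK2-3 and NK2-4, the last pair below all 11 controls (13.6 to 33.5 CPM). Esam, an adhesion molecule of endothelial cells and platelets (chromosome 9, 37528078 to 37538319), had 9.71 CPM in NK1 and 41.6 in NK2, against 39.98, 49.3 and 46.5 in KO1, KO2 and KO3. It split within NK2 in the same order, with 38.1 and 69.5 CPM in NK2-1 and NK2-2 and 29.1 and 23.8 in NK2-3 and NK2-4, inside the 22.4 to 70.1 CPM of the controls. Emcn, a mucin of capillaries and veins, had 0.631 to 1.22 CPM in NK1 lesions and 6.86 to 8.98 CPM in NK2 lesions, against 0 to 25.0 CPM in control lesions.

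The VEGF and angiopoietin receptors had a median log2 fold change of -0.41 over 5 genes. Kdr, which carries most of the VEGF signal (chromosome 5, 75932827 to 75978458), departed from the others in 1 lesion. It had 4.57 and 8.12 CPM in NK1-1 and NK1-2, 310 CPM in NK1-3 and 25.0 to 47.4 CPM in NK2, against 7.77 to 55.4 CPM in control lesions with a median of 36.2. NK1-3 held 430 counts of Kdr, with 1 count of Cdh5, 1 of Flt1, 1 of Calcrl and 0 of Pecam1. Other members there were not near 0, among them Ccm2l (33.8 CPM), Acvrl1 (29.5 CPM) and Egfl7 (15.1 CPM). Because of that lesion the mouse sums of NK1 and NK2 were 45.6 and 33.3 CPM, against 42.3, 44.2 and 34.5 CPM in KO1, KO2 and KO3, and the log2 fold change was -0.03 ± 0.37. Without NK1-3 it was -1.04, and without NK1-1 it was 0.93.

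Flt1, the VEGF decoy receptor, had 13.2, 23.1 and 0.720 CPM in NK1 lesions and 23.2 to 44.2 CPM in NK2 lesions, against 18.4 to 45.1 CPM in control lesions, and so NK1-2 overlapped the controls. Tek, the angiopoietin receptor, had 1 count in each lesion of NK1, 0.286 CPM over the mouse, and 7.42 CPM in NK2, against 3.06, 10.9 and 7.40 CPM in KO1, KO2 and KO3. Tie1, its partner receptor, had 1.43 CPM in NK1 and 6.80 in NK2, against 9.10, 6.12 and 10.6 in KO1, KO2 and KO3. Ptprb, the phosphatase that restrains Tek (chromosome 10, 116275523 to 116389535), had 3.71 CPM in NK1 and 57.9 in NK2, against 18.8, 70.9 and 33.5 in KO1, KO2 and KO3. Its log2 fold change was -0.41 ± 1.03, a standard error that spans both directions, and without NK1 it was 0.50.

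**Figure D3:**
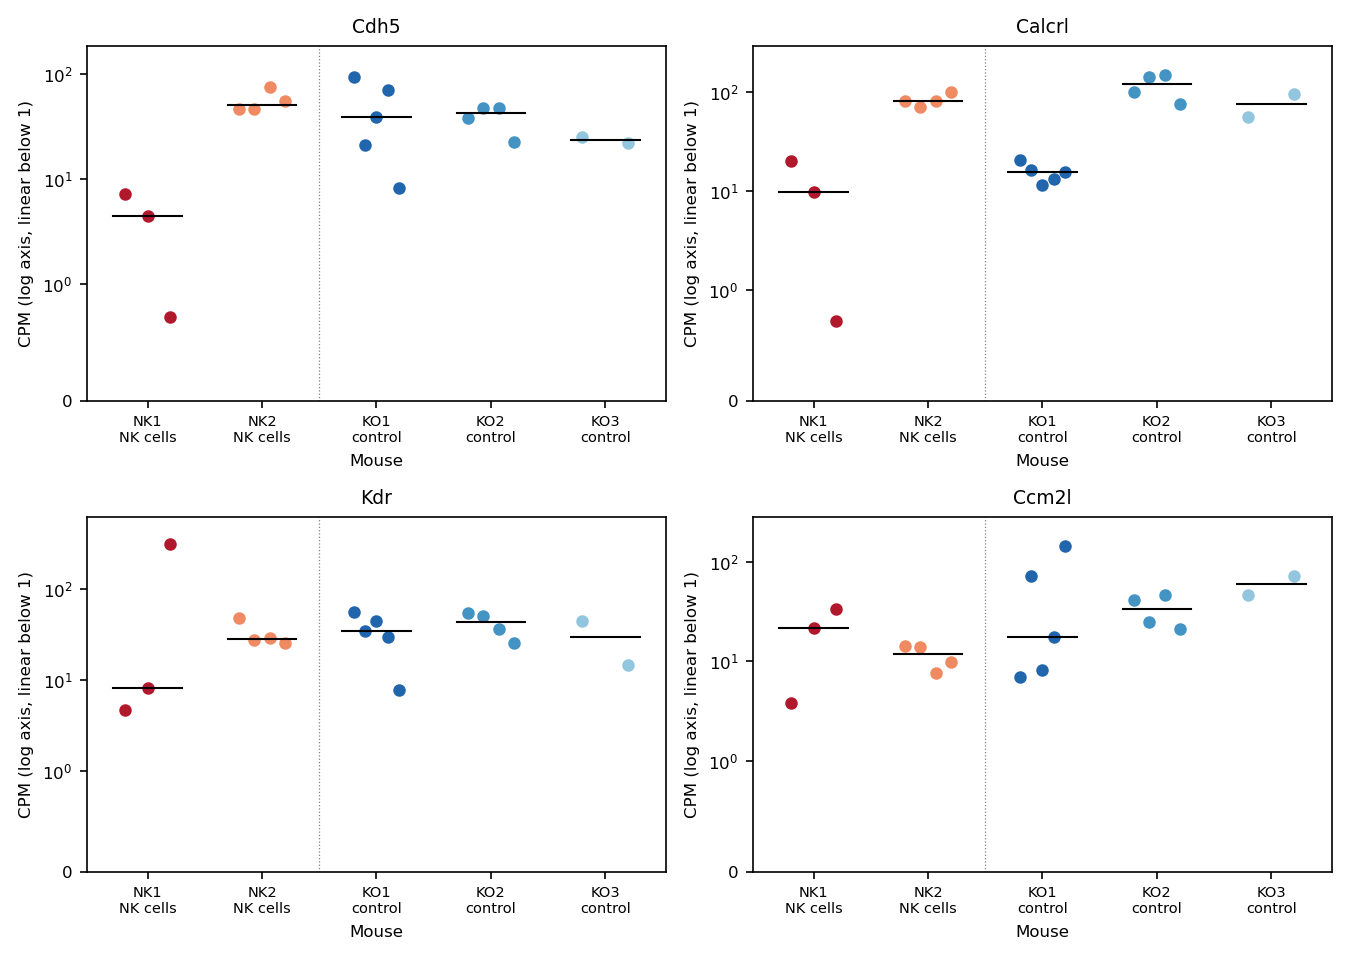
CPM of Cdh5, Calcrl, Kdr and Ccm2l in each lesion by mouse, NK mice left of control mice, on a log axis that is linear below 1, with the median of each mouse as a bar. Kdr reaches 310 CPM in NK1-3, Calcrl is low in NK1 and in all 5 lesions of KO1, and Ccm2l in NK2 stays between 7.56 and 14.1 CPM.

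The BMP and TGF-beta receptors had a median of -0.88 over 2 genes. Acvrl1, the BMP receptor ALK1 (chromosome 15, 101128522 to 101145336), had 7.42 CPM in NK1 and 28.3 in NK2, against 21.3, 45.3 and 67.3 in KO1, KO2 and KO3. The log2 fold change was -1.31 ± 0.69 (unadjusted p = 0.0960, edgeR), and NK2 lay between KO1 and KO2. The level of KO3 rested on KO3-2 with 130 CPM, since KO3-1 had 29.4 CPM. In NK1-3 it had 29.5 CPM, the level of NK2, while NK1-1 and NK1-2 had 2.52 and 8.52 CPM. Eng, its co-receptor, had 7.41, 40.6 and 0.720 CPM in NK1 lesions and 26.9 to 41.9 CPM in NK2 lesions, against 24.1 to 55.6 CPM in control lesions, so NK1-2 was at the level of the rest.

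Calcrl, the receptor that binds adrenomedullin when paired with Ramp2 (chromosome 2, 84330626 to 84425411), separated the mice in another way. It had 20.3, 9.74 and 0.720 CPM in NK1 lesions and 69.7 to 99.0 CPM in NK2 lesions, against 11.5 to 20.6 CPM in KO1, 74.8 to 147 CPM in KO2 and 56.3 and 94.9 CPM in KO3. Both NK1 and KO1 were low, and the 5 lesions of KO1 lay below every lesion of NK2, KO2 and KO3. The log2 fold change was -0.45 ± 0.95, and without NK1 it was 0.33. Ramp2, its partner protein, had 4.09 CPM in NK1 and 10.8 in NK2, against 6.77, 9.89 and 11.1 in KO1, KO2 and KO3. Ramp2 shares 1103 exon bases with Vps25 in GENCODE M21, so its level is uncertain. Aplnr, the apelin receptor, had 1.73 to 3.60 CPM in NK1 lesions and 9.19 to 32.4 CPM in NK2 lesions, against 0.791 to 10.9 CPM in control lesions. Its log2 fold change was 0.52 ± 0.85, and -1.67 without NK2.

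Low values in KO1 were not shared by all members. KO1 lay below NK2, KO2 and KO3 for 14 of the 34, beside 18.8% of all tested genes. All 5 lesions of KO1 lay below all 4 of KO2 for Calcrl, Ptprb, Clec14a and Lyve1, 4 members, beside 5.26% of all genes. Relative to Cdh5 in the same mouse, a ratio chosen after the values were seen, Calcrl stood at 2.70 in NK1 and 1.503 in NK2, against 0.262, 2.96 and 2.96 in KO1, KO2 and KO3. The ratio of Pecam1 to Cdh5 was 0.421 in NK1 and 0.453 in NK2, against 0.403, 0.556 and 0.871 in KO1, KO2 and KO3. Relative to Cdh5, Calcrl in NK1 was therefore not low, while Pecam1 and Cdh5 were low there together.

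The 4 transcription factors had a median of -1.08. Erg, the ETS factor of endothelial identity (chromosome 16, 95359169 to 95586593), had 1.05 CPM in NK1 and 4.21 in NK2, against 7.10, 7.39 and 9.31 in KO1, KO2 and KO3. By lesion it had 0 to 6.05 CPM with NK cells (median 2.72) and 3.16 to 19.6 CPM in controls (median 7.48), so the mice were separate and the lesions overlapped. NK over control gave a log2 fold change of -1.57 ± 0.74 (unadjusted p = 0.0687, edgeR) and -0.91 without NK1. Of the SOX factors, which act together in vessel growth, Sox7 had 0.666 CPM in NK1 and 6.90 in NK2, against 6.65, 12.02 and 4.61 in KO1, KO2 and KO3. Sox17, known for arterial endothelium, had 0.857 CPM in NK1 and 5.33 in NK2, against 4.18, 5.90 and 11.1 in KO1, KO2 and KO3. Sox18, known for blood and lymph vessels, was sparse at 0.190 CPM in NK1 and 3.23 in NK2, against 3.42, 2.65 and 0.609 in KO1, KO2 and KO3. For these 3 factors NK2 lay among the controls.

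The genes of matrix, guidance and vessel stability had a median of -1.23 over 6 members, and 3 of the 4 members with both NK mice below every control mouse were among them. Ccm2l, a relative of the cavernous malformation protein Ccm2 in the Heg1 pathway (chromosome 2, 153065955 to 153081735), had 11.8 CPM in NK1 and 11.9 in NK2, against 24.3, 35.2 and 57.2 in KO1, KO2 and KO3. The mean was 11.9 ± 0.0959 CPM in NK mice (SD, n = 2) and 38.9 ± 16.8 CPM in control mice (n = 3). By lesion it had 3.79, 21.5 and 33.8 CPM in NK1 and 7.56 to 14.1 CPM in NK2, against 7.01 to 142 CPM in controls with a median of 41.7. The mice did not overlap but the lesions did, with KO1-1, KO1-3 and KO1-4 at 7.01, 8.15 and 17.5 CPM. The log2 fold change was -1.71 ± 0.49 (unadjusted p = 0.00831, edgeR, and adjusted p = 0.9998). It was -1.70 without NK1, -1.72 without NK2 and -1.02 without NK1-1.

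The highest Ccm2l levels were 142 CPM in KO1-5 and 71.8 CPM in KO1-2, the lesions of KO1 with 68.7% and 58.3% of counts in mt-Rnr2, and 72.7 CPM in KO3-2 with 44.1%. Cdh5 had 8.23 CPM in KO1-5, the lowest control value, so Ccm2l and Cdh5 went opposite ways in that lesion. Without the lesions over 40% mt-Rnr2 the log2 fold change of Ccm2l was -1.40. Neutrophil genes (8) moved with the same order of mice, at 120 CPM in NK1 and 265 in NK2, against 285, 1858 and 2606 in KO1, KO2 and KO3. By lesion that order did not hold, since they summed to 302 CPM in KO1-5, 203 in KO1-2 and 4698 in KO3-2. The part of neutrophils was not tested.

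Egfl7, a matrix protein secreted by endothelium (chromosome 2, 26580014 to 26593120), had 7.14 CPM in NK1 and 13.8 in NK2, against 20.3, 28.4 and 46.4 in KO1, KO2 and KO3. Its lesions ran from 4.73 to 20.4 CPM with NK cells and from 13.4 to 79.5 CPM in controls, and overlapped. Its log2 fold change was -1.59 ± 0.54 (unadjusted p = 0.0187, edgeR), and -1.19 without NK1. Egfl7 hosts the microRNA Mir126a and shares exon bases with Agpat2 on the other strand. Robo4, the endothelial guidance receptor (chromosome 9, 37401897 to 37415115), had 1.05 CPM in NK1 and 8.26 in NK2, against 10.5, 11.8 and 26.0 in KO1, KO2 and KO3. NK over control gave -1.76 ± 0.87 on the log2 scale (unadjusted p = 0.0792, edgeR), and -0.95 without NK1. The level of KO3 rested on KO3-2 with 60.4 CPM, while KO3-1 had 5.67 CPM. KO3-2 was also the highest lesion for Erg (19.6 CPM), Egfl7, Acvrl1 and Car4.

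Cd93, a lectin-like adhesion receptor (chromosome 2, 148436640 to 148443563), had 7.04 CPM in NK1 and 46.7 in NK2, against 60.1, 45.7 and 42.0 in KO1, KO2 and KO3, with a log2 fold change of -0.87 ± 0.71. All 3 lesions of NK1 (4.32 to 11.0 CPM) lay below all controls (19.6 to 84.4 CPM) and those of NK2 (37.3 to 56.2 CPM) lay among them. Its relative Clec14a had 1.62 CPM in NK1 and 15.9 in NK2, against 7.57, 29.2 and 10.3 in KO1, KO2 and KO3. Mmrn2, a matrix protein that both bind, had 1.05 CPM in NK1 and 6.78 in NK2, against 8.19, 7.503 and 4.61 in KO1, KO2 and KO3. Plvap, which builds the diaphragms of fenestrae and caveolae, had 2 counts in all of NK1, 0.190 CPM, and 7.62 CPM in NK2, against 4.51, 8.995 and 6.61 in KO1, KO2 and KO3. Sele, the selectin of cytokine-activated endothelium, had 0 counts in NK1 and 25 in NK2, against 35 in all 11 control lesions, of which 21 were in KO1-3.

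**Figure D4:**
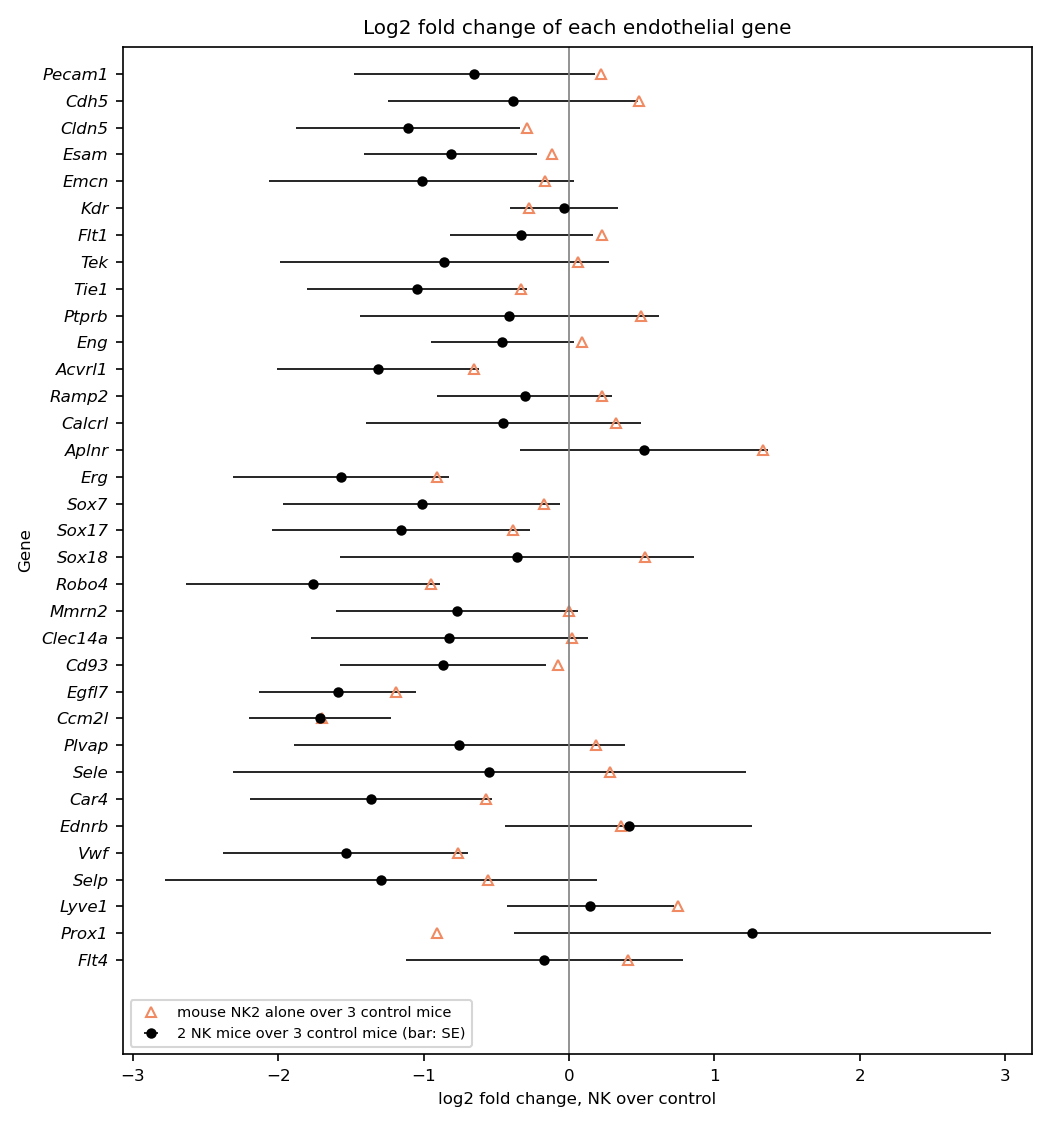
Log2 fold change, NK over control, of each of the 34 endothelial genes with its standard error (filled points, 2 NK mice over 3 control mice), beside the same with NK2 as the only NK mouse (open triangles). With both mice 30 points lie below 0, and with NK2 alone 17 do.

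The capillary genes went apart. Car4, a carbonic anhydrase known in mouse lung from aerocytes, the capillary cells of gas exchange (chromosome 11, 84957786 to 84966044), had 2.05, 0.812 and 0 CPM in NK1 lesions and 4.25 to 12.4 CPM in NK2 lesions, against 4.30 to 53.8 CPM in control lesions. The 3 lesions of NK1 were below every control, and NK2 overlapped with them. By mouse it had 1.43 CPM in NK1 and 9.78 in NK2, against 9.47, 11.0 and 23.5 in KO1, KO2 and KO3, with KO3-2 alone at 53.8 CPM. The log2 fold change was -1.36 ± 0.83 (unadjusted p = 0.142, edgeR). Ednrb, an endothelin receptor also known from aerocytes (chromosome 14, 103814625 to 103844402), had 8.57 CPM in NK1 and 7.98 in NK2, against 7.32, 10.2 and 1.04 in KO1, KO2 and KO3. By lesion it had 3.65 to 11.7 CPM with NK cells and 0.472 to 25.2 CPM in controls, with the highest in KO2-2. It was 1 of the 3 members for which NK1 was not the lowest mouse, and its log2 fold change was 0.41 ± 0.85, or -0.08 without KO3.

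The larger vessel genes Vwf and Selp, whose products are stored together in granules of endothelium and platelets, had log2 fold changes of -1.54 ± 0.84 and -1.29 ± 1.49. Vwf, the clotting factor that tethers platelets (chromosome 6, 125546774 to 125686679), had 3.63, 1.62 and 2.16 CPM in NK1 lesions and 9.09 to 22.6 CPM in NK2 lesions, against 5.87 to 102 CPM in control lesions with a median of 22.0. NK1 was below every other lesion, and NK2 lay in the lower part of the controls. Selp, P-selectin (chromosome 1, 164115264 to 164150026), had 2 counts in NK1 and 73 in NK2, against 16 in KO1, 226 in KO2 and 3 in KO3. A single lesion, KO2-1, held 190 of those 245 control counts and also the highest Vwf, 1186 counts or 102 CPM. Without KO2 the log2 fold change of Selp was 1.10. A platelet list of 10 genes summed to 19.6 CPM in KO2-1, and to 38.8, 45.0 and 24.1 CPM in KO2-2, KO2-3 and KO2-4. By mouse the list summed to 9.42 CPM in NK1 and 16.5 in NK2, against 11.1, 33.98 and 19.6 in KO1, KO2 and KO3. The part of platelets in the levels by lesion or by mouse was not tested.

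The lymphatic genes had a median log2 fold change of 0.15. Lyve1, a hyaluronan receptor of lymph vessels that is also known from macrophages and lung capillaries (chromosome 7, 110850607 to 110863239), had 21.0, 23.5 and 0 CPM in NK1 lesions and 39.5 to 62.4 CPM in NK2 lesions, against 8.23 to 55.1 CPM in control lesions. NK1-1 and NK1-2 were at the level of KO1 (8.23 to 28.2 CPM), and NK2 reached above the controls. By mouse it had 18.2 CPM in NK1 and 56.7 in NK2, against 22.0, 49.5 and 30.2 in KO1, KO2 and KO3, with a log2 fold change of 0.15 ± 0.57, or -0.90 without NK2. A macrophage list of 10 genes summed to 2358 CPM in NK1 and 3843 in NK2, against 1648, 3259 and 3165 in KO1, KO2 and KO3, and its part was not tested.

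Prox1, the transcription factor that defines lymphatic endothelium (chromosome 1, 190118035 to 190170714), was close to the detection limit. It had 21 counts in 3 of 7 NK lesions, 13 of them in NK1-1, and 29 counts in 5 of 11 control lesions, 19 of them in KO1-3. Its log2 fold change was 1.26 ± 1.64 and turned to -0.90 without NK1, so no direction was resolved at this depth. Flt4, the receptor for the lymphatic growth factor Vegfc (chromosome 11, 49609263 to 49652739), had 0.666 CPM in NK1 and 2.09 in NK2, against 2.37, 1.29 and 1.04 in KO1, KO2 and KO3, with a log2 fold change of -0.17 ± 0.95. With the defining gene Prox1 near 0, the levels of Lyve1 and Flt4 cannot be assigned to lymph vessels in these lesions. A list of 8 other lymphatic genes summed to 118 CPM in NK1 and 130 in NK2, against 161, 143 and 156 in KO1, KO2 and KO3. Of these sums, 1 gene, Nrp2, made up 57.0 CPM in NK1 and 94.6 in NK2, against 116, 87.4 and 116 in KO1, KO2 and KO3.

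**Figure D5:**
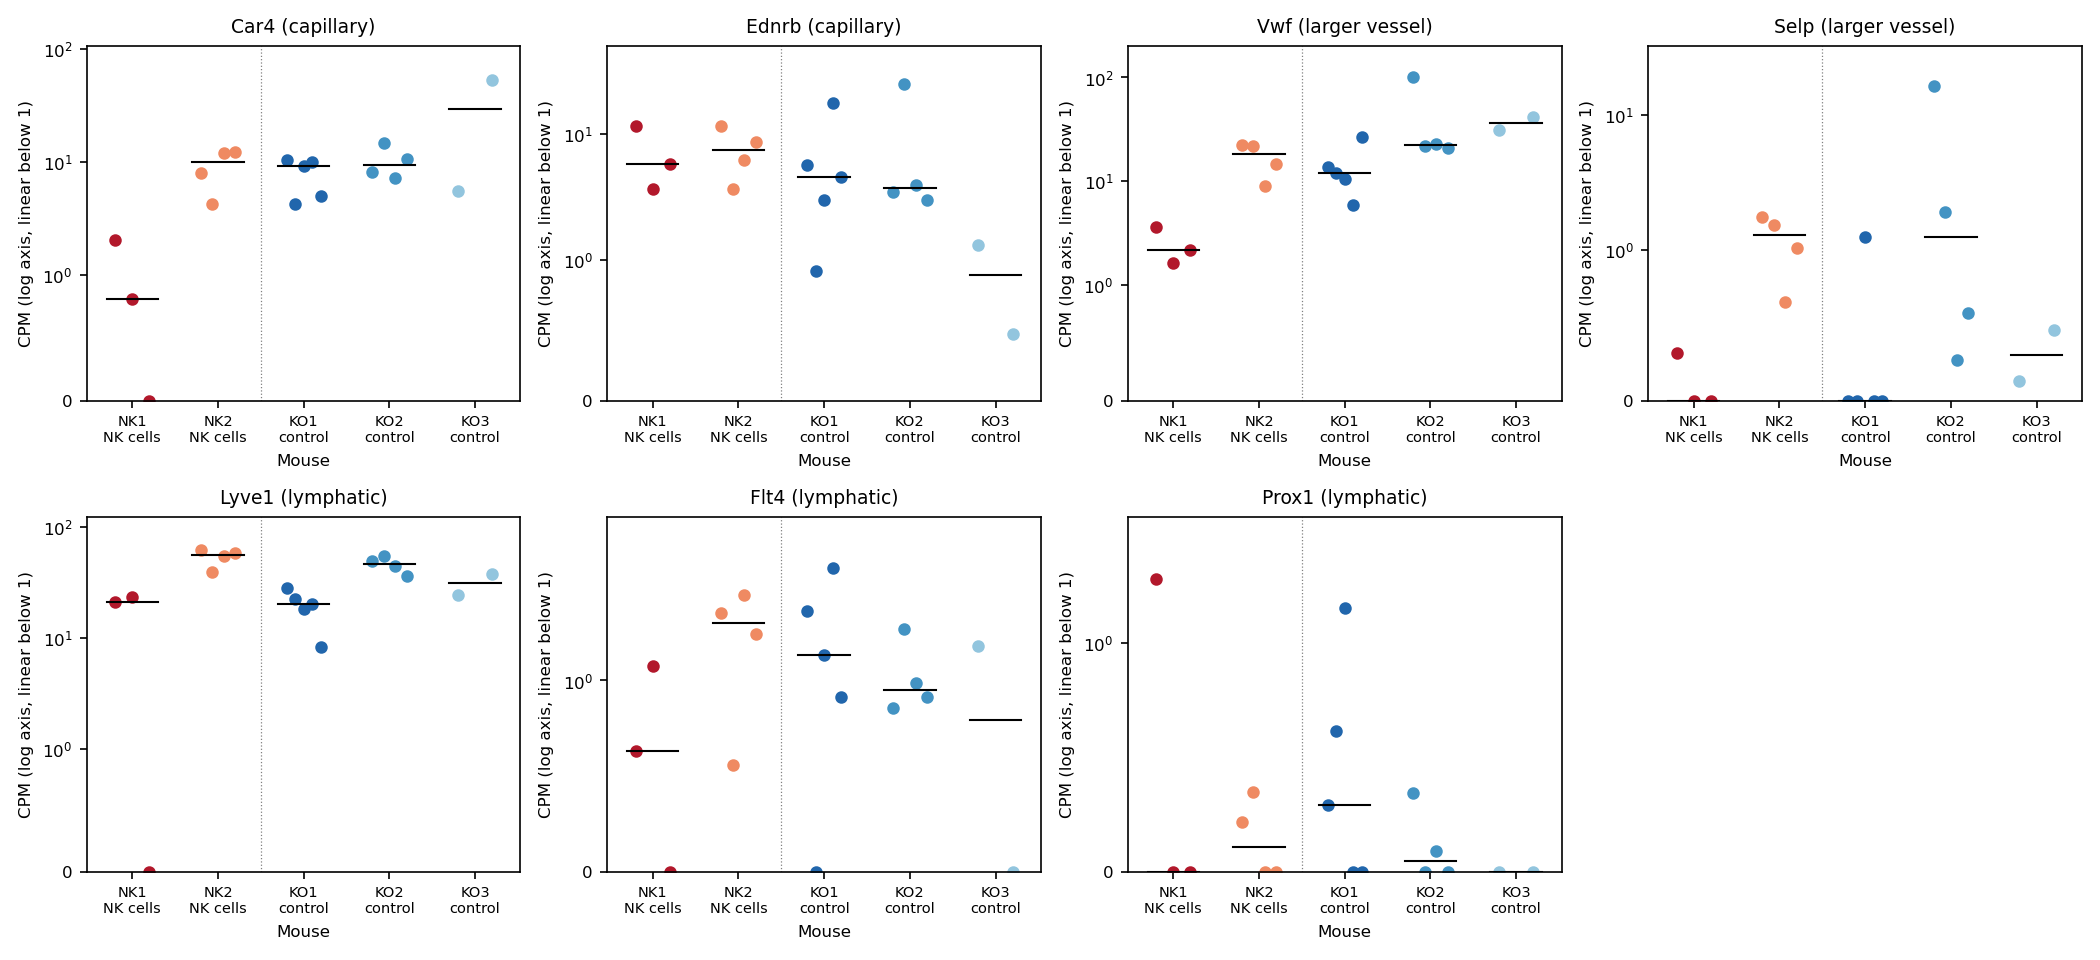
CPM of the capillary (Car4, Ednrb), larger vessel (Vwf, Selp) and lymphatic (Lyve1, Flt4, Prox1) genes in each lesion by mouse, NK mice left of control mice, on a log axis that is linear below 1, with the median of each mouse as a bar. Car4 and Vwf are below all control lesions in NK1, Ednrb is not, and KO2-1 holds the highest Vwf and Selp.

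Compared per length of exon, as mean CPM per kilobase over the 5 mice, the highest members were Cldn5 (13.7 CPM per kilobase), Esam (13.05), Calcrl (12.8), Lyve1 (12.1) and Ccm2l (11.7). Cdh5 stood at 9.02 CPM per kilobase and Kdr at 4.43. The lowest were Prox1 (0.0514 CPM per kilobase), Sele (0.105), Flt4 (0.181) and Selp (0.324). The first 5 lie within the spread of the mice, since each of them varied between mice by more than these levels differ.

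Other genes of the same biology were read from lists chosen by name, and 0 of them passed in edgeR after adjustment over all genes. Over all tested genes 51.7% had log2 fold changes below 0, and the lists are read beside that share. Of 28 further endothelial genes, 24 had log2 fold changes below 0 and 4 above, with a median of -0.40. With NK1 included, 3 of the 28 were lower at an unadjusted p under 0.05 in edgeR, beside 0.969% of all genes, and 0 were higher, beside 1.55%. Those with the smallest p were Ushbp1 (-2.06 ± 0.75, unadjusted p = 0.0246, edgeR), the junction regulator Rasip1 (-2.10 ± 0.82, 9.90 CPM in NK1 and 30.3 in NK2, against 39.7, 43.9 and 176 in KO1, KO2 and KO3) and the exchange factor Arhgef15 (-1.36 ± 0.58). By lesion the 28 genes summed to 751, 549 and 406 CPM in NK1 and to 786 to 988 CPM in NK2. Control lesions had 595 to 1335 CPM. NK1-1 lay inside that control range, and NK1-2 and NK1-3 lay below it.

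Of 15 tested ligands of these receptors, 6 were above 0 and 9 below, with a median of -0.28. Angpt1, the ligand that activates Tek, gave 1.60 ± 0.90, and Edn1, the ligand of Ednrb, gave -1.26 ± 0.76. Of 6 genes around the Ccm2 complex, 2 were above 0 and 4 below, with a median of -0.10. Its subunit Pdcd10 gave 1.35 ± 0.59, with 138 CPM in NK1 and 38.9 in NK2, against 24.6, 51.7 and 27.3 in KO1, KO2 and KO3. Klf4, a transcription factor downstream of that complex, gave -1.07 ± 0.52, with 4.47 CPM in NK1 and 7.83 in NK2, against 16.3, 11.9 and 10.6 in KO1, KO2 and KO3. Ccm2l and Klf4 were thus low in both NK mice, while Pdcd10 was high in NK1 alone. Of 12 Notch and ephrin genes, 4 were above 0 and 8 below, with a median of -0.10.

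Among vessel type lists, 5 of 6 aerocyte genes and 5 of 7 general capillary genes were below 0, with medians of -0.52 and -0.17. Prx, a scaffold protein known from aerocytes, had 1.05 CPM in NK1 and 5.96 in NK2, against 5.46, 9.06 and 8.87 in KO1, KO2 and KO3. Fibin, a secreted protein, was the member of the aerocyte list above 0, at 0.59 ± 0.72, with 13.3 CPM in NK1 and 5.03 in NK2, against 2.87, 10.2 and 5.13 in KO1, KO2 and KO3. The aerocyte list summed to 71.0 CPM in NK1 and 61.0 in NK2, against 59.4, 77.0 and 114 in KO1, KO2 and KO3. Of 8 artery and vein genes, 6 were below 0, with a median of -0.42. Gja4, the arterial connexin 37, had 2.66 CPM in NK1 and 8.51 in NK2, against 13.7, 9.35 and 19.8 in KO1, KO2 and KO3. Slc6a2, the noradrenaline transporter, gave -3.46 ± 1.42 (unadjusted p = 0.0444, edgeR), with 1.71 CPM in NK1 and 3.05 in NK2, against 1.17, 58.7 and 20.4 in KO1, KO2 and KO3, so KO1 was the lowest mouse. Vcam1, an adhesion molecule, gave 0.65 ± 0.41, with 149 CPM in NK1 and 84.3 in NK2, against 58.7, 70.2 and 93.7 in KO1, KO2 and KO3. The artery and vein list summed to 201 CPM in NK1 and 151 in NK2, against 133, 186 and 176 in KO1, KO2 and KO3. Vcam1 alone made up 149 of the 201 CPM in NK1, so that sum does not show the rest of the list to be high there. Of 7 other lymphatic genes, 4 were above 0 and 3 below, with a median of 0.27. Pericyte genes (10), which mark the cells wrapped around capillaries, summed to 253 CPM in NK1 and 78.5 in NK2, against 110, 54.9 and 59.9 in KO1, KO2 and KO3. Most of the sum of NK1 was 1 gene, Postn, a matrix protein that fibroblasts also make, with 232 CPM in NK1 and 32.8 in NK2, against 44.8, 24.7 and 14.97 in KO1, KO2 and KO3. Of the 10, 4 were above 0 and 6 below, with a median of -0.62.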

How the data were processed

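RNA was measured in 18 laser-captured lesions of 5 mice, from 2 ng of total RNA each, with a library kit for single cells, per the labels' protocols. The submitters' processing notes list bcl2fastq 2.17, STAR, RSEM 1.2.28, DESeq2 and the build mm10. How strand was handled is not given. The main deposited table holds expected counts, estimated counts per gene from RSEM that the authors did not scale, and these were rounded to whole numbers. The authors also deposited normalized values that look like log2, made in a way the sources do not give, and these served as an alternative. A deposited annotation table gave animal numbers (other fields not used), which matched the 5 mice. Of 49585 identifiers 49326 had a symbol.

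Counts were summed per mouse, and edgeR 4.0.16 with its quasi-likelihood F test (R 4.3.3, robust, TMM scaling, minimum count 10, minimum total 15, Benjamini-Hochberg threshold 0.05) compared 2 NK mice with 3 control mice. The standard error is the log2 fold change over the square root of F. With 2 mice against 3, the smallest one-sided p of an exact permutation test is 0.1. The common biological coefficient of variation was 64.9%. The fit was tested on simulated data. Of 50 genes with a simulated fold of 0.25, NK over control, 10% were called, and of 50 with a fold of 4, 34%. At folds of 0.0625 and 16 the shares were 82% and 98%. Of 15916 genes simulated without a change, 13 were called. The changed genes were drawn only from those above a minimum mean CPM, so these shares do not cover sparse members such as Prox1 and Sele. A gene that was not called can therefore still differ. Scores used a pseudocount of 1. Lesions of the same mouse differed by more than sampling noise (chi-square per degree of freedom at least 22.0). The labels do not say that animals were otherwise independent, so p-values measure the spread between these mice. Total counts of 2964241 to 11798853 per lesion set the precision, and limits at 0 counts cover counting error only.

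Members, gene lists and tests were chosen with earlier results of these data known. Named with full values were all capillary, larger vessel and lymphatic members, Ccm2l, and the 6 general members with the smallest p and the 6 with the highest mean CPM, 19 genes in all, and in other lists up to 3 genes with the smallest p. Other named genes were picked with their values known. Positions are 1-based on GRCm38 (mm10) from GENCODE M21, and promoters are from RefSeq (GRCm38.p6). The 11 alternatives (DESeq2 1.42.0, limma 3.58.1, scaling, filters, lesions as samples, the deposited normalized table, a replicate block, and lesions over 40% mt-Rnr2 left out) and 23 fits with a mouse or lesion left out were run.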

Additional observations from a re-analysis of the deposited data

Results flagged for a closer look

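In the 7 NK lesions, Kdr in NK1-3 had 309.6 CPM, with the nearest lesion at 47.4 CPM, a gap of 0.860 of the group's range, above Dixon's critical value of 0.568 for 7 samples. In the same lesions, Prox1 in NK1-1 had 2.05 CPM, with the nearest lesion at 0.348 CPM, a gap of 0.830 of the range. Among the 34 endothelial genes, 2 were marked in this way in the NK lesions, and chance marks about 1 in 20 groups. That rate holds for independent values, while these 7 lesions came from 2 mice. The marks do not cover the control lesions, where gaps also stood, as for Selp with 16.3 CPM in KO2-1 and 1.91 CPM in the nearest lesion, KO2-2. The causes were not tested.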

How the results depend on the processing

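No endothelial gene was called under any of the 34 alternatives run. The count of genes called over all genes, 0 as reported, was 39 with DESeq2, 224 with no filter on low counts, 7 with mouse number as a replicate block and 0 to 4 when a mouse or lesion was left out (4 without NK2). The median log2 fold change of all 34 members ranged from -2.86 (without NK2) to -0.0353 (without NK1) when a mouse or lesion was left out. The general members ranged likewise from -2.92 to 0.0031, the capillary members from -1.45 to -0.11, the larger vessel members from -3.36 (without NK2) to -0.0465 (without KO2) and the lymphatic members from -0.90 (without NK2) to 0.52 (without KO2). Without the lesions over 40% mt-Rnr2 the median was 0.0285 for all 34, 0.0172 for the general and 0.17 for the capillary members, by construction without NK1. With lesions as samples and mouse as a random block the larger vessel median was -0.27, and the cause was not tested.

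Single genes changed sign in the settings that follow, with their log2 fold changes, and the causes were not tested. With mouse as a random block these were Sele 0.0285, Selp 0.60, Flt4 0.27. With equal weight per lesion they were Lyve1 -0.89, Flt4 0.0904, and with the deposited normalized table Sele 0.0326, Lyve1 -0.31, Flt4 0.0650. With the replicate block they were Aplnr -0.42, Sele 0.0839, Ednrb -0.0661, Lyve1 -0.0364. The block gave 32 members below 0 and a median of -1.29. The labels do not say that mice with the same number share a batch. The deviations of same-numbered mice from their group means correlated at 0.0957 (NK1 with KO1) and 0.289 (NK2 with KO2). With 2 NK mice the deviations of NK1 and NK2 mirror each other, so these values cannot show whether a batch was shared. Without the lesions over 40% mt-Rnr2 they were Pecam1 0.33, Cdh5 0.36, Esam 0.0172, Flt1 0.33, Tek 0.25, Ptprb 0.53, Eng 0.12, Ramp2 0.39, Calcrl 0.41, Sox18 0.33, Mmrn2 0.0398, Clec14a 0.0784, Plvap 0.39, Car4 0.0954, Prox1 -1.05, Flt4 0.13. When a mouse or lesion was left out, the ranges of genes that changed sign were Pecam1 -3.32 to 0.22, Cdh5 -2.95 to 0.48, Kdr -1.04 to 0.93, Flt1 -1.24 to 0.23, Tek -4.62 to 0.0653, Ptprb -3.47 to 0.50, Eng -1.36 to 0.0902, Ramp2 -1.18 to 0.23, Calcrl -2.26 to 0.33, Aplnr -1.67 to 1.34, Sox18 -3.53 to 0.52, Mmrn2 -2.69 to 0.0031, Clec14a -3.28 to 0.0211, Plvap -5.11 to 0.19, Sele -6.27 to 0.28, Ednrb -0.0805 to 1.03, Selp -3.30 to 1.10, Lyve1 -0.90 to 0.75, Prox1 -0.90 to 2.16, Flt4 -1.24 to 0.41. In all, 69 single gene values changed sign and 1080 did not. Under the filter of 10 counts in 9 lesions, 31 of the 34 were tested. Depth limits Prox1, Sele, Selp and Flt4 most, and no alternative planned was left out.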
